A study of Mus musculus with 4 samples.

Results

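A set of 29 genes that encode enzymes and complexes of DNA methylation and of Polycomb repression was examined in mouse HSPC, the hematopoietic stem and progenitor cells from which blood is made. They were chosen by symbol from a list of names, and all 29 were found among the 24015 gene symbols counted. RNA-seq counts came from 4 libraries, 2 labelled control and 2 labelled caNIK. The caNIK mice carry the kinase NIK in a form that TRAF3 cannot target, placed behind a removable stop (Rosa-loxp-STOP-loxp-NIK), and the stop is taken out by the recombinase of the Vav-iCre line, whose Vav promoter is active across the blood system. Control alleles, sort markers, tissue, age and the count of animals were not given in the sources used here. Nothing says that each library stands for its own animal, and the p-values below therefore cover only the spread among these 4 samples. Xist and the Y-linked Uty, named after their values were seen, had reads in every library. In control replicates 1 and 2, Xist had 38009 and 21187 reads and Uty 103 and 416. The 2 control libraries were thus not repeats of the same RNA. In caNIK replicates 1 and 2, Xist had 22154 and 24081 reads and Uty 395 and 273. How far the spread between the caNIK libraries is technical was not tested.

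DNA methylation is set on unmethylated DNA by the de novo methyltransferases Dnmt3a and Dnmt3b. It is copied after replication by Dnmt1, which Uhrf1 brings to hemimethylated sites, and it is oxidised by the TET dioxygenases as a step of its removal. Polycomb repressive complex 2 (PRC2) methylates lysine 27 of histone H3 through Ezh1 or Ezh2, and Polycomb repressive complex 1 (PRC1) ubiquitinates histone H2A through Ring1 or Rnf2. In blood, loss of Dnmt3a or Tet2 is known to expand stem cell clones, and Bmi1 is known to sustain self-renewal.

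Libraries held 18574452 to 23162766 counts, and levels are given as CPM, a gene's reads relative to the library's total after TMM scaling. Map3k14, which encodes NIK, was at 30.2 and 25.1 CPM in control and at 177 and 192 CPM in caNIK (edgeR adjusted p = 0.000233). Of 12 HSPC markers 2 were higher and 4 lower (16.7% and 33.3%), beside 13.8% and 8.21% of all tested genes. All 12 had reads in both groups, and their summed level was 2867 and 2548 CPM in control and 1561 and 1146 CPM in caNIK, with Kit at 506 to 613 CPM throughout. Summed levels of other cells' markers also differed: 8 erythroid genes from 329 and 686 to 1540 and 2471 CPM, 10 mast cell and basophil genes from 681 and 753 to 3209 and 1835 CPM, and 9 granulocyte genes from 1267 and 3118 to 359 and 450 CPM. Of these lists, 5, 7 and 5 genes were higher and 0, 0 and 3 lower, where 13.8% and 8.21% of all tested genes were. The mast cell and basophil list also holds Kit, which made up most of its sum in control. The granulocyte sum was mostly Mpo in control, an early granule gene named after its values were seen (1038 and 2503 CPM in control, 61.3 and 66 CPM in caNIK), while the median log2 fold change of the 9 genes was 1.92. None of these genes was at 0 in either group. The part of cell make-up in the members' changes was not tested.

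Of the 28 members with enough reads to test, 4 were higher and 2 were lower in caNIK HSPC (edgeR's quasi-likelihood test, Benjamini-Hochberg adjusted p under 0.05 over all 14191 genes tested). The higher genes were Phc3, Dnmt3a, Jarid2 and Cbx7, and the lower genes were Dnmt3b and Tet1. These 21.4% stood beside 22.0% of all tested genes past the same threshold, 13.8% higher and 8.21% lower, a share near the background and no result about the members as a group. Changes were mostly small: the median size of a member's log2 fold change was 0.27, against 0.44 over all tested genes. The members' median SE was also smaller (0.17 against 0.24), so these medians are of unlike precision. Of the tested members 2, Phc3 and Dnmt3b, changed by more than 2-fold. The members' CPM did not overlap between the groups for 15 of 28 (53.6%), against 64.9% of all tested genes. The median log2 fold change was 0.03 for the members and 0.00 for all tested genes. The counts of higher and lower members moved when a library was left out. Those fits hold 1 library in a group and test another set of genes, so their counts are not set beside these shares.

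**Figure D1:**
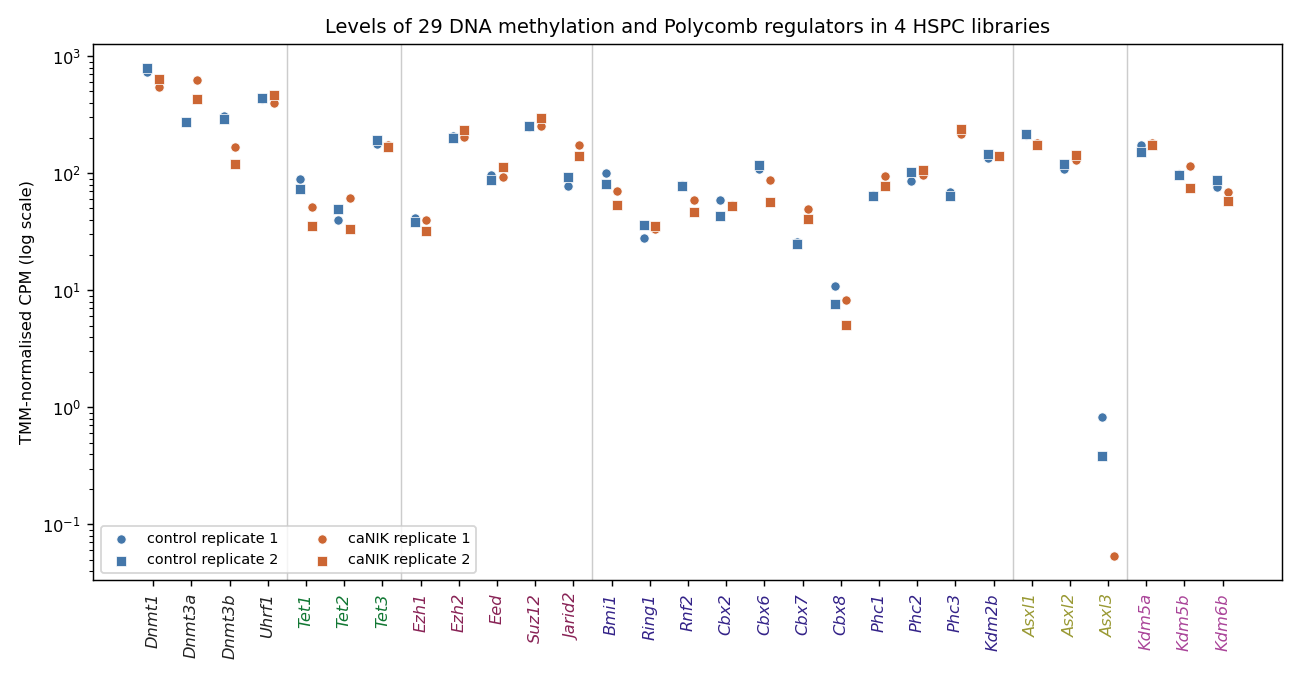
Level of each of the 29 members in each library, as TMM-normalised counts (CPM) on a log axis. Blue marks are control and orange marks caNIK, circles are replicate 1 and squares replicate 2, and grey lines part the functional groups; a library with no read (caNIK replicate 2 for Asxl3) has no mark, and Phc3 shows the widest gap between groups among the tested members.

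The promoters of the 6 genes past the threshold are shown because they are the members that moved. Sequences are RefSeq's on GRCm38.p6, 250 bases up to the transcription start, and cover 25 of the 29 members in 36 promoters. Where a gene has several starts, the first listed stands here. Capitals mark matches on either strand to GGGNNNNNCC, a loose form of the kappaB consensus with any base at the middle positions. Overlapping matches run together.
Dnmt3a, chr12:3806730-3806979, plus strand: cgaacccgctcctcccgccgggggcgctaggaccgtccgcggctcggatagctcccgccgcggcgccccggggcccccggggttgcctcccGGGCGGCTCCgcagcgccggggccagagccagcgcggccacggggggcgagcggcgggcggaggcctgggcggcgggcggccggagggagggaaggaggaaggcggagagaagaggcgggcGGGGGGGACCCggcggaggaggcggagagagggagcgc
Dnmt3b, chr2:153649199-153649448, plus strand: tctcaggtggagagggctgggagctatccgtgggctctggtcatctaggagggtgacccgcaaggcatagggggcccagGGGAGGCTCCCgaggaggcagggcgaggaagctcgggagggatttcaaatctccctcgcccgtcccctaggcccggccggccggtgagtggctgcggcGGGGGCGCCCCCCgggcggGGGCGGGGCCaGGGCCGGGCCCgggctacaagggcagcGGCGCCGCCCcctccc
Tet1, chr10:62887325-62887574, minus strand: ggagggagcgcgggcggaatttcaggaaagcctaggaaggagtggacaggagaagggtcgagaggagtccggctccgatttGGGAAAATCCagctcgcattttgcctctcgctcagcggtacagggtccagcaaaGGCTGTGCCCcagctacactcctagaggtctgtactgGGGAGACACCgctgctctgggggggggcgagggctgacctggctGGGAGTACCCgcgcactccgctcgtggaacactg
Jarid2, chr13:44730524-44730773, plus strand: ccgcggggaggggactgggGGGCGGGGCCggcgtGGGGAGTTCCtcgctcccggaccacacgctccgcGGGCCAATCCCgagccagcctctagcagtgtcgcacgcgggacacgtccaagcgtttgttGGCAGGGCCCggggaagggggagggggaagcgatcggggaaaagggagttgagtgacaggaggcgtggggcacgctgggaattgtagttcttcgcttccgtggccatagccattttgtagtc
Cbx7, chr15:79932647-79932896, minus strand: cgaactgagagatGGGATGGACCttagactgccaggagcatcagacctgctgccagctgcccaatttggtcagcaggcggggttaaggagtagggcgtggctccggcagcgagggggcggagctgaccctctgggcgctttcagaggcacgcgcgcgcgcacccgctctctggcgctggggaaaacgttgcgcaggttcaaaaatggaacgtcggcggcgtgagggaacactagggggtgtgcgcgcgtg
Phc3, chr3:30969416-30969665, minus strand: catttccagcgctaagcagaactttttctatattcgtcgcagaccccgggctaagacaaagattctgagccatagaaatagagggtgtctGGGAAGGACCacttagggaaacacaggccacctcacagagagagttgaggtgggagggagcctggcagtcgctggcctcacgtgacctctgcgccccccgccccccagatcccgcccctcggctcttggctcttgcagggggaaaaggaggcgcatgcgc

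A match was found in 29 of the 36 member promoters and in 45.8% of all 32851 promoters of this length, and each of the 6 printed promoters held at least 1. The member promoters had a median GC content of 67.4% against 52.4% for all promoters, and a median of 21 CpG against 6. The E2F motifs TTTCCCGC and TTTGGCGC were searched in the same way on both strands. The first was found in 1 member promoter (Suz12; 0.895% of all promoters) and the second in 0 (0.417%). A match describes letters only.

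The de novo methyltransferases moved in opposite directions. Dnmt3a was at 272 and 275 CPM in control replicates 1 and 2 and at 626 and 430 CPM in caNIK replicates 1 and 2. Both caNIK libraries lay above both controls, and replicate 1 lay above replicate 2. The change was 1.93-fold, a log2 fold change of 0.95 ± 0.20 (SE, n = 2 libraries a group; edgeR adjusted p = 0.018). Dnmt3b, which is known for its role in early development and in primitive progenitors, was at 308 and 292 CPM in control and at 169 and 120 CPM in caNIK. Both caNIK libraries lay below both controls. Its log2 fold change was -1.06 ± 0.19, that is 2.08-fold lower (edgeR adjusted p = 0.0111). Both genes passed in every one of the 12 alternative fits. Dnmt3a overlaps Dnmt3aos in RefSeq, which had at most 26 reads in a library (0 and 2 reads in control, 19 and 26 in caNIK). In bulk RNA, a change in the cells present and a change in RNA per cell cannot be told apart, here and below.

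Set per length, as CPM per kilobase of exon, the balance of the pair turned over. Dnmt3a made up 27.8% and 29.1% of the summed level of both genes in the control libraries, and 61.8% and 61.1% in the caNIK libraries. The ratio of Dnmt3a to Dnmt3b reads was 0.884 and 0.94 in control and 3.71 and 3.59 in caNIK. The replicates of a group thus lay close together in this ratio, although each gene was higher in caNIK replicate 1 than in replicate 2. The summed level of the pair was 98.7 and 95.2 CPM per kilobase in control, and 102 and 71.1 in caNIK. With 2 libraries a group, no exact permutation test of a share can pass the threshold, so the shares are given without one.

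Dnmt1 and Uhrf1, the maintenance pair, were the members with the highest level per length in both groups. Dnmt1 stood at 120 ± 6.57 and 94 ± 10.9 CPM per kilobase in control and caNIK (SD, n = 2), and Uhrf1 at 119 ± 1.42 and 118 ± 14.1. In control their order lay inside the spread, whereas in both caNIK libraries Uhrf1 stood above Dnmt1 (ratio of Dnmt1 to Uhrf1 per length 0.982 and 1.04 in control, 0.797 and 0.794 in caNIK). Dnmt1 was at 729 and 787 CPM in control and 544 and 641 CPM in caNIK, with no overlap. Its log2 fold change was -0.36 ± 0.15 and did not pass (edgeR adjusted p = 0.142), although it did without caNIK replicate 2 (adjusted p = 0.0352). Uhrf1 overlapped between groups, at 432 and 439 CPM in control and 397 and 470 CPM in caNIK. The 95% interval of its fold change ran from 0.78 to 1.27.

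Among the TET dioxygenases, Tet1 fell. It was at 88.7 and 72.7 CPM in control and at 51.4 and 35.1 CPM in caNIK, with both caNIK libraries below both controls. Its log2 fold change was -0.90 ± 0.22 (edgeR adjusted p = 0.0318). Leaving out control replicate 1 ended the call (adjusted p = 0.0743), as did leaving out the second caNIK library (adjusted p = 0.0706). Tet2, the TET gene most often mutated in blood disease, was at 39.8 and 49.7 CPM in control and at 60.9 and 33.4 CPM in caNIK. The caNIK libraries lay on either side of the controls, and the 95% interval of the fold change, 0.65 to 1.72, was the widest of the 3. Tet3 was at 176 and 194 CPM in control and 175 and 167 CPM in caNIK, with an interval of 0.73 to 1.17. Per length, Tet3 held the largest share of the family in every library, from 58.8% to 70.1%, while the share of Tet1 was 24.2% and 18.8% in control and 14.3% and 12.0% in caNIK.

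**Figure D2:**
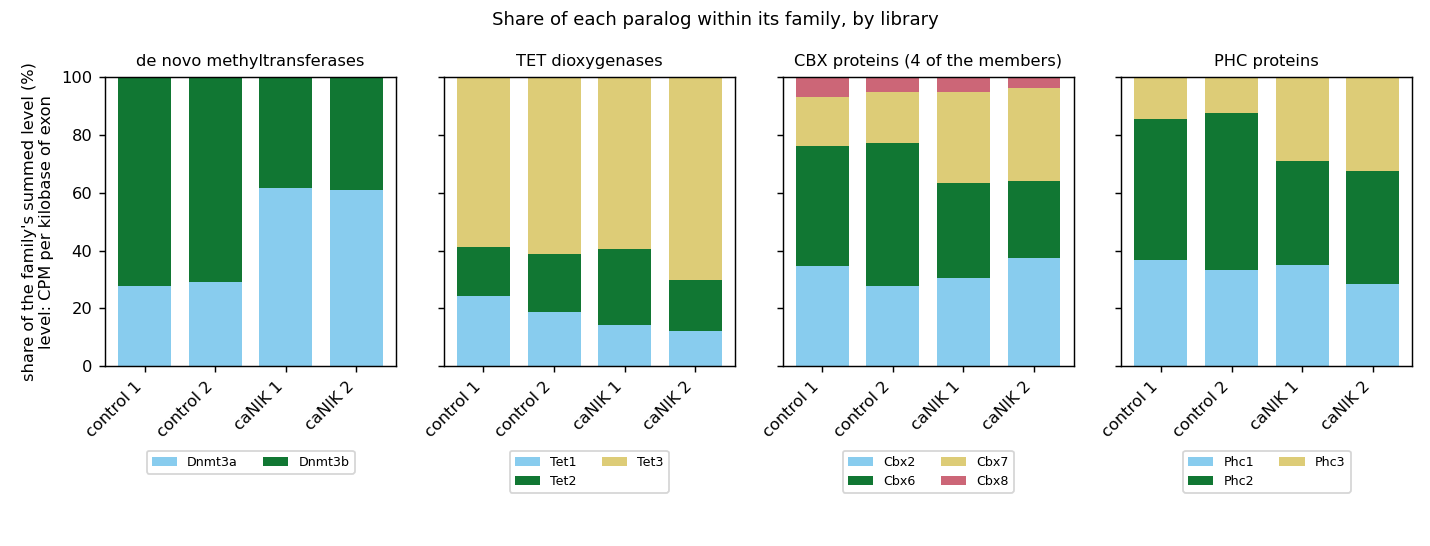
Share of each gene in the summed level of its family, in percent, for each of the 4 libraries; levels are CPM per kilobase of exon. Dnmt3a and Dnmt3b exchange places between control and caNIK, and Cbx7 and Phc3 take larger shares in both caNIK libraries.

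The core subunits of PRC2 did not pass the test. Ezh2, the main methyltransferase of dividing cells, was at 206 and 201 CPM in control and 203 and 234 CPM in caNIK (log2 fold change 0.10 ± 0.15; edgeR adjusted p = 0.676). Suz12 and Eed, which hold the complex together and bind its mark, had log2 fold changes of 0.13 ± 0.15 and 0.17 ± 0.17. The 95% intervals of the fold change ran from 0.84 to 1.37 for Ezh2, 0.86 to 1.41 for Suz12 and 0.85 to 1.48 for Eed, so a change of 1.5-fold or more lay outside them. Ezh1, the paralog of resting cells, was at 41.6 and 38.4 CPM in control and at 39.8 and 32.2 CPM in caNIK. Per length, Ezh2 made up 91.5% and 91.9% of the summed level of the pair in control and 91.7% and 94.0% in caNIK.

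Jarid2, an accessory subunit that helps bring PRC2 to its sites, was the PRC2 member that rose. It was at 77.8 and 92.4 CPM in control and at 176 and 141 CPM in caNIK, and both caNIK libraries lay above both controls. The change was 1.86-fold (log2 fold change 0.90 ± 0.18; edgeR adjusted p = 0.015). Without control replicate 1 the call was lost (0.76; adjusted p = 0.0792). The ratio of Jarid2 to Suz12 reads was 0.314 and 0.365 in control and 0.697 and 0.474 in caNIK.

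Ezh2, Suz12, Eed, Dnmt1 and Uhrf1 were each lower in caNIK replicate 1 than in replicate 2, by 0.21 to 0.29 on the log2 scale. A list of 20 S phase genes showed the same order in 19, with a median gap of -0.41. Across all 28 tested members the order was mostly the other way, with 19 higher in replicate 1. Between control and caNIK, 0 of the 20 S phase genes were higher and 2 lower (10%), beside 13.8% and 8.21% of all tested genes. The lower share is near the background. The 2 were Gins2 of the replicative helicase and the uracil glycosylase Ung (log2 fold changes -0.68 ± 0.17 and -0.72 ± 0.18, edgeR adjusted p = 0.0307 and 0.0313). Gins2 lost the call when any 1 library was left out, and Ung without control replicate 1 or caNIK replicate 1. The counts of higher and lower S phase genes also moved with the caNIK library that was left out. The part of cycling cells in the members' values was not tested.

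**Figure D3:**
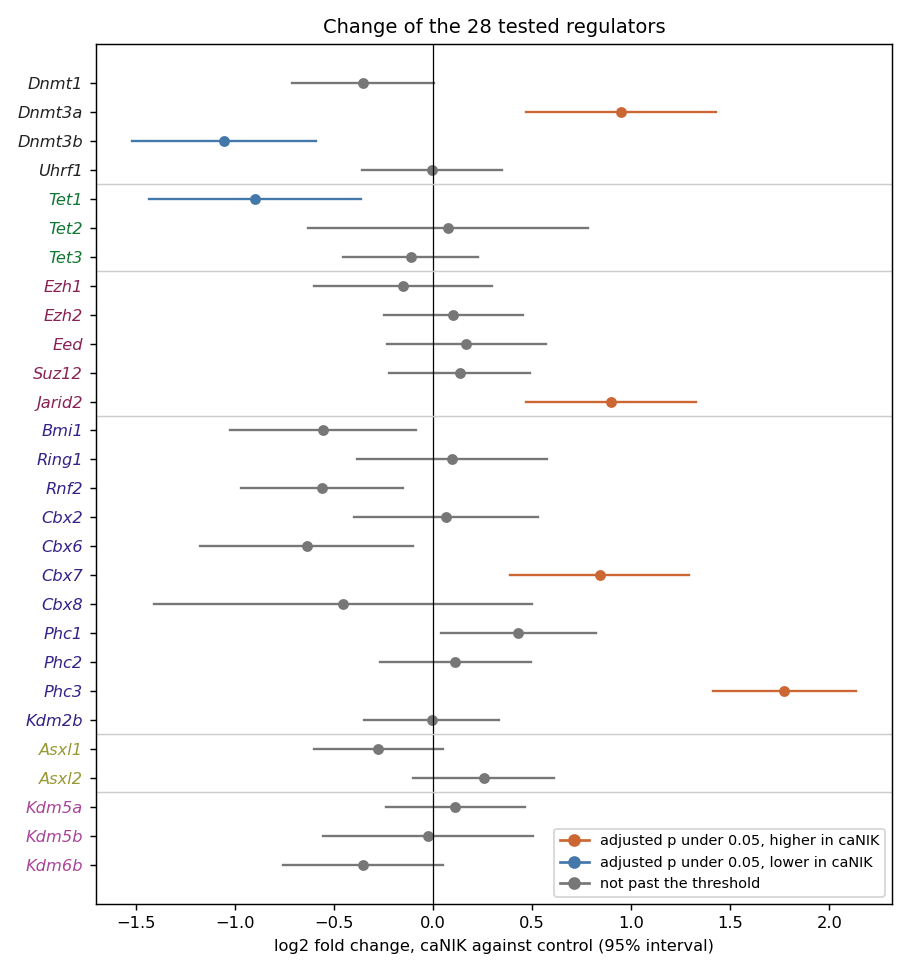
Log2 fold change of each tested member, caNIK against control, with its 95% interval from the edgeR fit; orange is higher and blue lower past the threshold, grey is not past it. Phc3 stands farthest from 0 at 1.77, and the core PRC2 genes Ezh2, Eed and Suz12 lie close to 0.

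PRC1 held the largest change among the tested members. Phc3, a polyhomeotic protein whose SAM domain links PRC1 complexes together, was at 68.7 and 64.2 CPM in control and at 215 and 240 CPM in caNIK. The groups were far apart against their spread, and the change was 3.42-fold (log2 fold change 1.77 ± 0.15; edgeR adjusted p = 0.000701). It passed in all 12 alternative fits, with log2 fold changes from 1.67 to 1.86. Its paralog Phc1 was at 64.7 and 63.4 CPM in control and 94.8 and 77.7 CPM in caNIK. That log2 fold change of 0.43 ± 0.16 did not pass (edgeR adjusted p = 0.112). Phc2 overlapped between groups, at 85.7 and 102 CPM in control and 97.3 and 106 CPM in caNIK. Per length, Phc3 was the smallest of the 3 in control, at 14.4% and 12.5% of the family, and reached 29.1% and 32.5% in caNIK. The summed level of the family was 40.9 and 44 CPM per kilobase in control and 63.1 and 63.2 in caNIK.

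The CBX proteins, which bind methylated histone H3 and bring canonical PRC1 to chromatin, included 1 that rose. Cbx7, whose level is known to bear on the self-renewal of blood stem cells, was at 25.9 and 24.7 CPM in control and at 49.8 and 40.8 CPM in caNIK. Both caNIK libraries lay above both controls, and the log2 fold change was 0.84 ± 0.19 (edgeR adjusted p = 0.0225). The call was lost in 3 of 4 fits with a library left out: without control replicate 1, control replicate 2 or caNIK replicate 1 the adjusted p was 0.074, 0.0828 and 0.0541, while the log2 fold change stayed between 0.69 and 0.86. Cbx7 overlaps Apobec3 in RefSeq, which was at 177 and 178 CPM in control and 194 and 217 CPM in caNIK, and without a stated strand setting reads of the overlap cannot be told apart. Cbx6 did not pass, at 108 and 117 CPM in control and 87.6 and 56.8 CPM in caNIK (log2 fold change -0.64 ± 0.22; edgeR adjusted p = 0.0908). When the first caNIK library was left out it passed, at -0.98 (adjusted p = 0.0108).

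Per length, Cbx7 made up 17.0% and 17.8% of the summed level of Cbx2, Cbx6, Cbx7 and Cbx8 in control and 31.7% and 32.3% in caNIK, while Cbx6 made up 41.6% and 49.4% in control and 32.7% and 26.4% in caNIK. Cbx2 overlapped between groups, at 58.8 and 43 CPM in control and 53.5 and 53 CPM in caNIK. Cbx8 had the fewest reads of the tested members, 105 to 208 in a library, and its 95% interval ran from 0.38 to 1.41.

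The ligases of PRC1 and their partner Bmi1 did not pass. Rnf2, the main ubiquitin ligase, was at 79.7 and 77.3 CPM in control and at 59.2 and 47.1 CPM in caNIK (log2 fold change -0.56 ± 0.17; edgeR adjusted p = 0.0596). Bmi1, which stimulates the ligase, was at 101 and 81.2 CPM in control and at 70.1 and 53.9 CPM in caNIK (-0.56 ± 0.20; adjusted p = 0.0925). In both, the caNIK libraries lay below both controls. Rnf2 passed in 5 and Bmi1 in 2 of the 12 alternative fits, and both passed without caNIK replicate 1 (adjusted p = 0.0286 and 0.046). Ring1, the other ligase, overlapped between groups (28.2 and 36.2 CPM in control, 33.2 and 35.6 CPM in caNIK). Kdm2b, which brings a variant PRC1 to unmethylated CpG islands, was at 134 and 147 CPM in control and at 140 CPM in both caNIK libraries, with a 95% interval of the fold change from 0.79 to 1.26.

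The ASXL proteins act with the H2A deubiquitinase Bap1. Asxl1 was at 214 and 217 CPM in control and at 180 and 175 CPM in caNIK, with no overlap, and its log2 fold change of -0.28 ± 0.14 did not pass (edgeR adjusted p = 0.198). Asxl2 lay the other way, at 110 and 120 CPM in control and 130 and 144 CPM in caNIK (0.26 ± 0.15; adjusted p = 0.271). Asxl3 was nearly absent, with 16 and 9 reads in control and 1 and 0 in caNIK, and was not tested. Its summed counts gave a ratio of control to caNIK of 23.0, with an exact 95% interval of 3.77 to 945 that covers counting error only.

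The histone demethylases among the members did not pass. Kdm5a and Kdm5b, which remove methyl groups from lysine 4 of histone H3, had log2 fold changes of 0.11 ± 0.15 and -0.02 ± 0.22. Kdm5b was at 99 and 95.9 CPM in control and at 116 and 75.4 CPM in caNIK, so that the caNIK libraries lay on either side of the controls. Kdm6b, which removes the mark set by PRC2, was at 75.6 and 86.8 CPM in control and at 69.2 and 57.9 CPM in caNIK (-0.35 ± 0.17; edgeR adjusted p = 0.187).

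**Figure D4:**
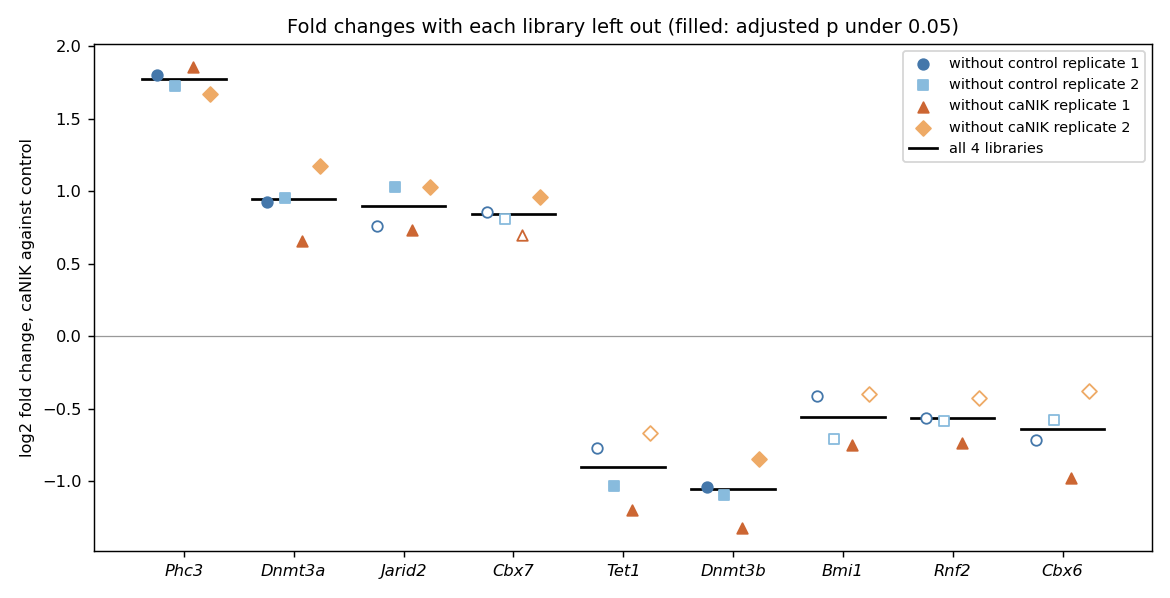
Log2 fold change of the 6 members past the threshold and of Bmi1, Rnf2 and Cbx6, with all libraries (black line) and with each library left out (marks; filled where the edgeR adjusted p is under 0.05). Phc3, Dnmt3a and Dnmt3b stay past the threshold in all 4 fits; the other genes shown are open in at least 1.

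Other genes of these pathways were read from 7 lists of related function. Of the 74 tested, 12 were higher and 8 lower, that is 16.2% and 10.8% beside 13.8% and 8.21% of all tested genes. These shares are near the background, and their log2 fold changes had a median of 0.09, beside 0.00 over all tested genes. The same shares of all tested genes stand beside the counts of each list below.

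The largest difference was in Dnmt3l, the inactive cofactor that stimulates Dnmt3a and Dnmt3b and is known mainly from germ cells. It had 0 and 1 reads in control and 409 and 568 reads in caNIK, that is 22 and 27.4 CPM. It was kept for testing only through the caNIK libraries, so its p is not given and its call is a description. The ratio of summed counts was 1061, with an exact 95% counting interval of 190.0 to 41952. Dnmt3l overlaps Aire in RefSeq. Aire, named after its values were seen, was at 0.934 and 0.852 CPM in control and at 738 and 512 CPM in caNIK, and how far reads of Aire were counted for Dnmt3l was not tested. Aire was highest in caNIK replicate 1 and Dnmt3l in replicate 2, an order that does not show whether reads were shared.

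In the list of other DNA methylation genes, 2 of 11 were higher, Dnmt3l and the methyl-CpG binding protein gene Mbd2. Dnmt3l was kept for testing only through the caNIK libraries. Mbd2 had a log2 fold change of 0.92 ± 0.20 (edgeR adjusted p = 0.0207), and lost the call without control replicate 1 (log2 fold change 0.76). The remodeller Hells, which helps methylation reach packed DNA, was lower (-0.54 ± 0.15; adjusted p = 0.0442), but not when any 1 library was left out. In all 27.3% of this list passed, beside 22.0% of all tested genes. Of 8 tested genes linked with methylcytosine oxidation and excision, 3 were higher and 1 lower, where 13.8% and 8.21% of all tested genes were. The higher genes were Gadd45a, Gadd45b and Gadd45g, stress-response genes that have been linked with active demethylation, with log2 fold changes of 1.41 ± 0.26, 2.02 ± 0.31 and 3.15 ± 0.33 (edgeR adjusted p = 0.0107, 0.0055 and 0.00131). Idh2, a mitochondrial source of the alpha-ketoglutarate that TET enzymes need, fell from 321 and 315 CPM to 195 and 160 CPM (-0.84 ± 0.16; edgeR adjusted p = 0.0117).

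Among 8 tested PRC2 partners, Aebp2 rose and Phf19 fell, 25% in all beside 22.0% of all tested genes. Aebp2, which is found with Jarid2 in a form of PRC2, was at 151 and 146 CPM in control and at 368 and 345 CPM in caNIK (log2 fold change 1.26 ± 0.14; edgeR adjusted p = 0.0016). Phf19, one of the Polycomb-like proteins that mark the other form of PRC2, was at 32.2 and 33.7 CPM in control and at 18.3 and 17.9 CPM in caNIK (-0.87 ± 0.19; adjusted p = 0.0222). Phf19 lost the call without either control library (adjusted p = 0.0666 and 0.102). Its relative Mtf2, named after its values were seen, had -0.55 ± 0.16 (adjusted p = 0.0502).

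Of 22 tested PRC1 partners, 1 was higher and 4 lower (4.55% and 18.2%), beside 13.8% and 8.21% of all tested genes. In all 22.7% passed, beside 22.0% of all tested genes. The counts are small, and the list was not tested as a set. Sfmbt1, which has MBT domains that bind histones, rose by 1.42 ± 0.18 on the log2 scale (edgeR adjusted p = 0.00307). Scml2 and Scmh1, SAM-domain proteins of PRC1, fell by 2.18 ± 0.36 and 1.29 ± 0.23 (adjusted p = 0.00786 and 0.0106). The other two lower genes, L3mbtl3 and Bcorl1, are named because the count is small (-1.31 ± 0.27 and -1.06 ± 0.22; adjusted p = 0.0165 and 0.0163). Bcorl1 lost the call without control replicate 2. Among 6 genes of H2A deubiquitination, Usp16 rose (0.98 ± 0.17; adjusted p = 0.00955; 0.0525 without control replicate 1), whereas Bap1 did not pass (0.10 ± 0.16).

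Of 8 other demethylases, 3 were higher and 0 lower, where 13.8% and 8.21% of all tested genes were; so short a list is described by its genes alone. They were Kdm1b, which acts on lysine 4 of histone H3 (1.54 ± 0.21; edgeR adjusted p = 0.00372), Kdm6a, the X-linked paralog of Kdm6b (0.86 ± 0.18; adjusted p = 0.0169), and Kdm2a, the paralog of Kdm2b (0.67 ± 0.17; adjusted p = 0.0307). Without control replicate 2, only Kdm1b passed; Kdm2a also lost the call without control replicate 1 and with library totals in place of scaling factors. Xist, named after its values were seen, was at 1971 and 903 CPM in control and at 1190 and 1161 CPM in caNIK, and the Y-linked Uty at 5.34 and 17.7 CPM and at 21.2 and 13.2 CPM; their part in the X-linked Kdm6a was not tested. Of 11 methyltransferases that counter Polycomb, 18.2% passed, beside 22.0% of all tested genes. Kmt2a was higher (0.55 ± 0.15, edgeR adjusted p = 0.0414) and Whsc1 lower (-0.59 ± 0.14, adjusted p = 0.0251). Both lost the call without either control library, and Kmt2a also without caNIK replicate 1, with upper-quartile factors and with library totals.

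**Figure D5:**
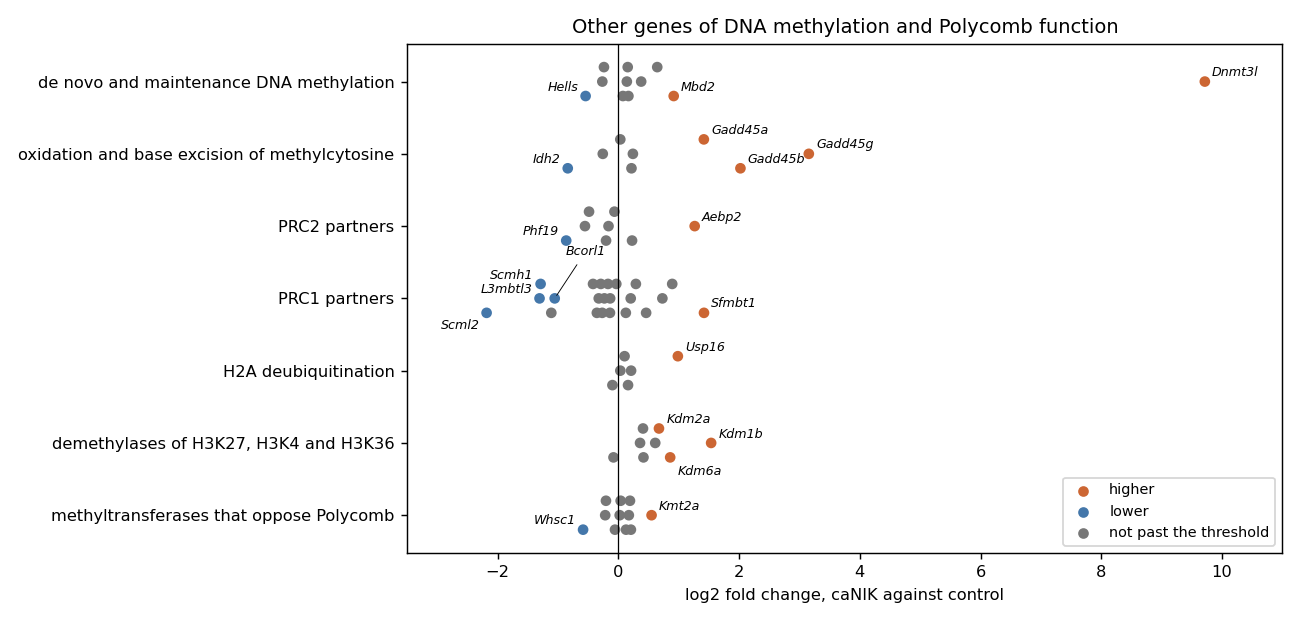
Log2 fold change, caNIK against control, of each tested gene in 7 lists of related function; orange is higher and blue lower past the edgeR threshold, and named, and grey is not past it. Dnmt3l lies far to the right where the control libraries hold 1 read in all, and most other genes lie within 1 of 0.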

How the data were processed

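For each of the 4 libraries the authors deposited raw counts, 1 whole number for each symbol, with no normalization. Tools named in the submitters' processing notes are FastQC, TopHat2 2.1.0, featureCounts 1.5.0, DESeq2 1.10.1 and the build mm9, with no role or order. Annotation release, strand setting and multimapping rule were not given in the sources used here, and the reads of overlapping genes therefore cannot be told apart. This also holds for Kdm1b and Usp16. Kdm1b overlaps Dek in RefSeq, at 373 and 371 CPM in control and 361 and 573 CPM in caNIK. Usp16 overlaps Cct8, at 493 and 496 CPM in control and 394 and 537 CPM in caNIK. Groups and replicate numbers came from the sample titles.

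The main test was edgeR 4.0.16 in R 4.3.3, after filterByExpr (14191 of 24015 symbols left) and TMM scaling: glmQLFit and glmQLFTest, two-sided, over all tested genes, with the 2 groups and no covariate. The procedure was also run on simulated data with 200 changed genes, fewer than the 3129 that passed here. That run is not used as support for these calls. Levels are TMM-normalised CPM; per-length levels divide CPM by the union of exons in GENCODE's basic annotation of GRCm38, which is not the deposited build. SE and 95% intervals come from the F statistic. Alternatives were DESeq2 1.42.0, limma-voom (limma 3.58.1), RLE or upper-quartile factors, library totals, 2 other filters, the replicate block and each library left out.

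The members and lists were chosen with earlier results of these data known. Named were all 29 members, Map3k14, and up to 3 genes with the smallest p among those past the threshold in each list; any other gene was named after its values were seen. Protein sequences were not compared. All 29 members matched RefSeq symbols. Some results of the listed genes are not reported here.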

Additional observations from a re-analysis of the deposited data

How the results depend on the processing

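Phc3, Dnmt3a and Dnmt3b passed under all 12 alternatives, Jarid2 under 11, Tet1 under 10 and Cbx7 under 9, and all 6 kept their direction throughout; the alternatives that ended a call each left out 1 library. With each library left out in turn, the counts of higher and lower members moved. Lower members numbered 4 when genes with at least 1 read in any library were kept. Same-numbered replicates deviated together with a correlation of 0.25 over genes. The numbers are not stated to pair samples, and what same-numbered libraries share was not tested. With the replicate block, 4 members were higher and 5 lower (Bmi1, Rnf2 and Cbx6 joined), and over all genes 4260 passed against 3129. Over all genes the other counts ran from 2604 to 3893. No member past the threshold in any fit reversed. With 2 libraries a group, the median SE of a member was 0.17 on the log2 scale, which limits what can be seen of smaller changes.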

Other observations

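Genes that textbooks give as Polycomb targets were mostly silent in all libraries. Of 30 listed, 23 had too few reads to test and 8 had none in any library. Their summed level was 9.8 and 3.45 CPM in control and 68.4 and 51.2 CPM in caNIK, and most of it in caNIK came from 2 genes. Cdkn2a, the senescence-linked inhibitor locus held down by Bmi1 in stem cells, had 6 and 3 reads in control and 466 and 485 in caNIK, and its neighbour Cdkn2b 11 and 5 against 292 and 245. Genes kept for testing only through caNIK reads had to be higher there, so their number is a description.

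Germline genes that promoter methylation keeps silent in somatic cells did not rise together. Of 20 listed, 14 were not tested and 9 had no read in any library. The RNA helicase gene Ddx4, a germ cell marker, was present in control at 31.1 and 22.4 CPM and fell to 2.15 and 1.11 CPM in caNIK (log2 fold change -4.04 ± 0.41; edgeR adjusted p = 0.00122). Tdrd1 had 11 and 3 reads in control and 119 and 32 in caNIK, and Tex101 0 and 0 against 14 and 12. Both were kept for testing only through the caNIK libraries, so no test of them is given. The list's summed level was 36.9 and 28.4 CPM in control and 13.5 and 6.46 CPM in caNIK, and Ddx4 alone made up most of it in control.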
